A study of Mus musculus with 15 samples.

Results

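Type I interferon response genes were followed in a mouse leukemia while its driving oncogene was switched off. The list holds 36 genes, and 34 of them were measured among the 18193 genes named on the arrays. A member was taken where a probe set carried exactly its symbol, and the brightest probe set stood for the gene. Isg15 shares its probe set with another gene and Ifi44 has no probe set of its own name, so these 2 members have no values here. All arrays held RNA of acute myeloid leukemia (AML) cells of the genotype NRASG12V/Mll-AF9, that is, cells with an activated NRAS and the Mll-AF9 fusion. The cells were taken from spleens of SCID/Beige mice that had been injected with the leukemia through the tail vein. Such hosts lack mature T and B cells and have impaired natural killer cells, but keep their macrophages, dendritic cells, red cell precursors and stroma. RAS-ON samples (5 arrays, 0 h) came from vehicle-treated mice. RAS-OFF samples (2 arrays at each of 48, 60, 72, 84 and 96 h) came from mice given doxycycline, which stops expression of NRASG12V, by injection and then in the drinking water. The ages of the mice are not stated in the labels.

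Type I interferons are secreted proteins (the alpha interferons and interferon beta) that bind the receptor pair IFNAR1 and IFNAR2. The receptor's kinases JAK1 and TYK2 phosphorylate STAT proteins, STAT2 among them, which join IRF9 and bind the interferon-stimulated response element (ISRE) in the promoters of the target genes. Many targets encode antiviral proteins, others encode the sensors and transcription factors of the pathway itself, and some also respond to interferon gamma through the gamma-activated site (GAS). In the spleen, myeloid cells, plasmacytoid dendritic cells and lymphocytes all express such genes, so the level in bulk RNA sums over the cells present.

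Promoters of selected members with an ISRE-type or GAS-type match are shown first. Some members share these motifs, while their levels moved in different directions. RefSeq sequence (build GRCm38.p6) from 250 bases before to 50 bases after a start site was available for 27 of the 34 measured members. The ISRE-type motif was searched as GAAA, 2 bases of any kind and GAAA again, or on the other strand as TTTC, 2 bases of any kind and TTTC. The GAS-type motif was TTCNNNGAA, which reads the same on both strands. An ISRE-type match lay in 13 of the 27 members (48.1%), against 3.99% of the 27025 genes in the promoter table and 3.44% of its 32851 windows of the same length. A GAS-type match lay in 10 of the 27 (37.0%), against 9.55% of all genes and 8.3% of all windows. In RAS-OFF against RAS-ON 20.1% of all genes tested rose and 28.7% fell. Of the 13 members with an ISRE-type match, 10 rose, 2 fell and 1 did not pass the test, with a median log2 change of 0.68. The 14 members without one had a median of 0.35, and 10 of them rose. For the GAS-type motif the order was the other way. Of the 10 members with a match 5 rose, with a median of 0.31. Of the 17 without one 15 rose, with a median of 0.70. The differences between these medians were not tested. Only members with a match are shown. Cmpk2, Oasl2 and Isg20, among the members with the largest rises, had sequence but no ISRE-type match. Each line below gives the 150 bases before the start site, 5′ to 3′ on the gene's strand, with the matches in capitals.
Rsad2: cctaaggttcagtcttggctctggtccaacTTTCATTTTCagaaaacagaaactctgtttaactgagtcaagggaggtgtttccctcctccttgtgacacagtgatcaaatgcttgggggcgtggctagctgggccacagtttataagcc
Ifit1: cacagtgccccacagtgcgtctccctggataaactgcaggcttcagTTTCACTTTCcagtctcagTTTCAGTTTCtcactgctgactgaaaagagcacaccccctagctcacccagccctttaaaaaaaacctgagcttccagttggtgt
Igtp: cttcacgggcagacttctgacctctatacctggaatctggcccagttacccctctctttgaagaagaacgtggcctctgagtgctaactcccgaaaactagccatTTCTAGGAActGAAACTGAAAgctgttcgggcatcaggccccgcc
Irgm1: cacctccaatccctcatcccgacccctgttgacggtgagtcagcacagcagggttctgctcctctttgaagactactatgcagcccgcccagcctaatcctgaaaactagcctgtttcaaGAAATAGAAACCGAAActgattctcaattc
Gbp3: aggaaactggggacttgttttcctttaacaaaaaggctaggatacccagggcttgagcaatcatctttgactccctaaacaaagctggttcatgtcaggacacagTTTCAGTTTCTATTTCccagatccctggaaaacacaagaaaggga
Bst2: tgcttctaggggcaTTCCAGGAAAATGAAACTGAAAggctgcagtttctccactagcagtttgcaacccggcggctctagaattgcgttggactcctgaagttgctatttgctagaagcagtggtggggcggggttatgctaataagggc
Irf1: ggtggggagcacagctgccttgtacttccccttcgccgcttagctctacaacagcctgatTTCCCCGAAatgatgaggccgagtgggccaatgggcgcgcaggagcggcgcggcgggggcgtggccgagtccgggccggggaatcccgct

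Rsad2 (chr12:26456453-26456602, minus strand) is shown as the member with the largest rise, with 1 match from -120 to -111. Ifit1 (chr19:34640739-34640888, plus strand) has 2 separate ISRE-type matches, from -104 to -95 and from -85 to -76. Igtp (chr11:58199406-58199555, plus strand) has a GAS-type match from -45 to -37 and, next to it, an ISRE-type match from -34 to -25. Irgm1 (chr11:48871421-48871570, minus strand) carries 2 overlapping ISRE-type matches. These 4 genes rose. Gbp3 (chr3:142559894-142560043, plus strand) and Bst2 (chr8:71537473-71537622, minus strand) also carry 2 overlapping ISRE-type matches, and in Bst2 a GAS-type match from -136 to -128 overlaps the first of them. Both genes fell. Irf1 (chr11:53769864-53770013, plus strand) has the GAS-type match alone, from -90 to -82, and its level did not pass the test. Genes that rose and genes that fell thus carried the same motif in these windows. A match describes letters only and shows no binding.

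Values are log2 of the deposited array intensities, and the array medians lay between 149.99 and 156.53 in linear intensity. The RAS-ON arrays were read as 2 sets, replicates 1 to 3 and replicates 4 and 5. The root mean square log2 difference was 0.185 to 0.286 among replicates 1 to 3 and 0.178 between replicates 4 and 5. Between the sets it was 0.247 to 0.343, which overlaps the range among replicates 1 to 3. RAS-OFF 48 h, 84 h and 96 h replicate 1 lay farthest from the other RAS-OFF arrays, with median differences of 0.281, 0.29 and 0.306, against 0.197 to 0.269 for the rest. The Gapdh control probe sets at the 3-prime end exceeded those at the 5-prime end, which grows as RNA degrades, by 1.22 on RAS-OFF 96 h replicate 1 and by 0.0989 to 0.355 on the other arrays. Nras itself was at 10.94 ± 0.18 (SD) on the 5 RAS-ON arrays and at 10.62 ± 0.17 (SD) on the 10 RAS-OFF arrays, a change of -0.31 ± 0.09 (SE, limma adjusted p = 0.00725). The labels do not say whether its probes read the transgene. Whether each replicate is a separate mouse is not said in the labels, so the p-values reflect how far these samples spread, part of which may be technical.

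Comparing RAS-OFF with RAS-ON asks how the interferon genes differ after NRAS was turned off. Most of them were higher. With limma, 23 of the 34 rose and 2 fell (Benjamini-Hochberg adjusted p below 0.05 over all genes), while 20.1% of all genes tested rose and 28.7% fell. The member median was 0.42 (log2, RAS-OFF averaged over the 5 times, less RAS-ON), against -0.04 over all genes, and 29 of 34 changes were above 0. Changes ran from -0.32 for Gbp3 to 2.13 for Rsad2. In 15 members all 10 RAS-OFF arrays lay above all 5 RAS-ON arrays, as in 9.36% of all genes, and in 0 members did they all lie below, as in 12.0% of all genes. In this bulk RNA, more cells of a type that expresses a gene and more RNA of it per cell cannot be told apart. The count of 23 was 24 without the 3 RAS-OFF arrays that lay farthest from the rest, with all 23 among them. The count of 2 was 1 without any one of 11 arrays, which are named with Bst2, and 4 without RAS-ON replicate 5.

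**Figure D1:**
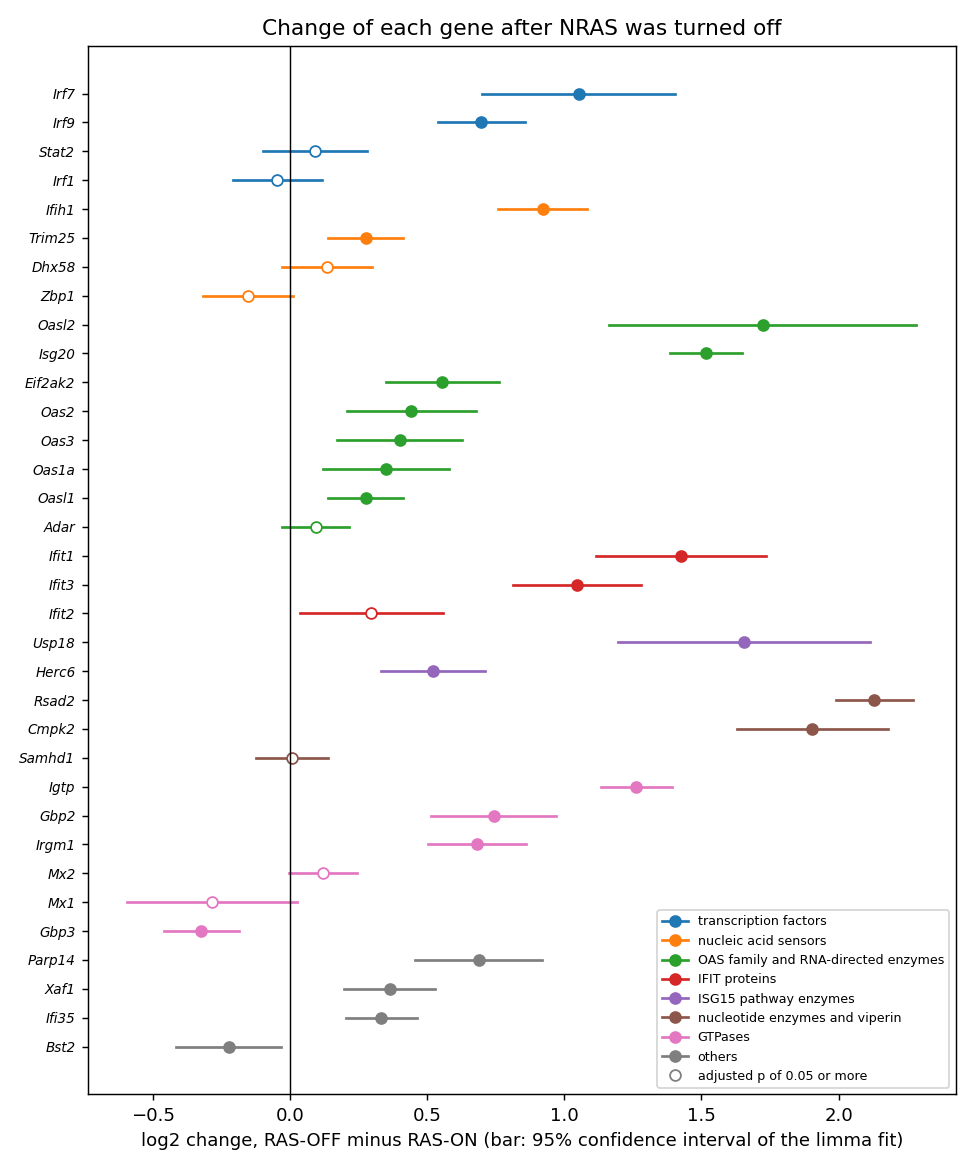
Log2 change of each of the 34 measured genes in RAS-OFF (10 arrays) minus RAS-ON (5 arrays), with the 95% confidence interval of the limma fit and genes coloured by role; open circles mark genes that did not pass the test. Rsad2, Cmpk2, Oasl2, Usp18 and Isg20 lie farthest to the right, and Gbp3 and Bst2 are the called genes to the left of 0.

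The counts by role below are to be read beside 20.1% of all genes higher and 28.7% lower. Among the 4 transcription factors 2 rose, with a median of 0.39. Irf7, the factor that amplifies interferon alpha production, had log2 intensities of 9.10, 9.15, 9.04, 8.22 and 8.18 on RAS-ON replicates 1 to 5. On the 10 RAS-OFF arrays it ran from 9.35 to 10.32 (median 9.75). All RAS-OFF arrays were therefore above all RAS-ON arrays, and among the latter replicates 4 and 5 were low. The change was 1.05 ± 0.17 (SE, adjusted p = 9.34e-05), and it was 0.69 against RAS-ON replicates 1 to 3 alone and 1.59 against replicates 4 and 5 alone. Irf9, the DNA-binding partner of STAT2, was at 9.96, 10.12, 10.27, 10.07 and 9.95 in RAS-ON and at 10.50 to 11.16 (median 10.70) in RAS-OFF. The groups did not overlap, and the change was 0.70 ± 0.07 (SE, adjusted p = 2.08e-06).

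Stat2, the signalling partner of Irf9, was at 7.92, 7.93, 8.27, 7.71 and 7.69 in RAS-ON and at 7.65 to 8.41 (median 8.00) in RAS-OFF. The groups overlapped and its change of 0.09 did not pass the test (adjusted p = 0.423, 95% confidence interval -0.10 to 0.28). Irf1, a factor that type I interferon and interferon gamma both induce, was at 10.25, 10.34, 10.39, 9.95 and 10.12 in RAS-ON and at 9.89 to 10.42 (median 10.18) in RAS-OFF. Its change was -0.05 (adjusted p = 0.64, interval -0.21 to 0.12). Both genes changed sign with the choice of RAS-ON arrays: Stat2 stood at -0.05 against replicates 1 to 3 alone and 0.30 (adjusted p = 0.0137) against replicates 4 and 5 alone, Irf1 at -0.16 and 0.13.

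Of the 4 nucleic acid sensors and their partners, 2 rose. Ifih1 encodes MDA5, which detects long double-stranded RNA. It was at 9.23, 9.15, 9.12, 9.05 and 9.04 in RAS-ON and at 9.59 to 10.41 in RAS-OFF, without overlap. The change was 0.92 ± 0.08 (SE, adjusted p = 1.49e-07), or 1.89-fold. Trim25, the ubiquitin ligase that activates RIG-I, rose by 0.27 ± 0.06 (adjusted p = 0.00239), from 10.69 to 11.07 in RAS-ON to 10.98 to 11.25 in RAS-OFF. Against RAS-ON replicates 4 and 5 alone the Trim25 call was lost (adjusted p = 0.0539). The LGP2 gene Dhx58, a regulator of both RNA sensors, was at 8.30 to 8.71 in RAS-ON and at 8.30 to 9.09 in RAS-OFF, a change of 0.13 (adjusted p = 0.17) that was -0.01 against replicates 1 to 3 alone and 0.35 (adjusted p = 0.00256) against replicates 4 and 5 alone.

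Zbp1, a sensor of Z-form nucleic acids that can start necroptosis, was at 8.30, 8.13, 7.95, 8.04 and 7.84 in RAS-ON. In RAS-OFF it ran from 7.48 to 8.35 with a median of 7.75. The highest 3 RAS-OFF values, 8.28, 8.35 and 8.31, came from both 48 h arrays and 60 h replicate 1. Its change of -0.15 did not pass the test (adjusted p = 0.11). Without RAS-ON replicate 5 it passed (-0.21, adjusted p = 0.0382), and adjusted p ran from 0.0186 to 0.743 over the 30 alternatives.

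In the OAS family and other enzymes that act on RNA 7 of 8 members rose, with a median of 0.42, while 20.1% of all genes rose. OAS enzymes make 2-5A oligonucleotides that activate RNase L, and the OAS-like proteins bind RNA or RIG-I. Oasl2 was at 7.13, 7.72, 7.57, 6.18 and 5.84 on RAS-ON replicates 1 to 5. In RAS-OFF it was at 9.40 and 9.69 at 48 h, 9.25 and 8.46 at 60 h, 7.96 and 8.17 at 72 h, 8.29 and 8.33 at 84 h, and 8.28 and 8.29 at 96 h. The lowest RAS-OFF array, 72 h replicate 1, was still above the highest RAS-ON array, and RAS-ON replicates 4 and 5 stood far below the other three. The change was 1.72 ± 0.26 (SE, adjusted p = 6.81e-05, 3.30-fold), 1.14 against replicates 1 to 3 alone and 2.60 against replicates 4 and 5 alone. Oasl1, its direct neighbour on the chromosome, rose by 0.28 ± 0.06 (adjusted p = 0.00256). The Oasl1 arrays overlapped, at 8.17 to 8.39 in RAS-ON and 8.20 to 8.69 in RAS-OFF.

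Oas2 rose by 0.44 ± 0.11 (SE, adjusted p = 0.0039), Oas3 by 0.40 ± 0.11 (adjusted p = 0.00625) and Oas1a by 0.35 ± 0.11 (adjusted p = 0.0147). Oas2 and Oas3 are direct neighbours, with 5 protein-coding genes between Oas3 and Oas1a. All 3 overlapped between the groups: Oas3, for example, ran from 8.74 to 9.36 in RAS-ON and from 9.01 to 9.88 in RAS-OFF. Against RAS-ON replicates 1 to 3 alone, adjusted p was 0.078 for Oas3 and 0.181 for Oas1a, so both calls were lost. The Oas1a call was also lost without the 48 h arrays (adjusted p = 0.128).

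Isg20, an exonuclease that degrades single-stranded RNA, was at 10.93, 10.69, 11.02, 11.01 and 10.83 in RAS-ON and at 12.06 to 12.64 (median 12.47) in RAS-OFF. The RAS-ON values were tight and the gap to RAS-OFF was more than 1 log2 unit, with a change of 1.52 ± 0.06 (SE, adjusted p = 1.12e-10, 2.86-fold). Eif2ak2 encodes PKR, the kinase that halts translation when it binds double-stranded RNA. It rose by 0.55 ± 0.10 (adjusted p = 0.000238), from 8.92 to 9.48 in RAS-ON to 9.47 to 10.13 in RAS-OFF. Adar, which edits adenosine to inosine in double-stranded RNA, changed by 0.09 (adjusted p = 0.199) on its brightest probe set. Its other probe sets were higher by 0.54 (adjusted p = 1.93e-05) and 0.77 (adjusted p = 0.0064), tested with all probe sets, so the call for Adar depends on the probe set taken.

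IFIT proteins bind viral RNA and block its translation, and 2 of the 3 members rose. Ifit1 was at 7.01, 7.07, 6.38, 6.48 and 6.39 in RAS-ON and at 7.65 to 8.62 (median 8.12) in RAS-OFF. Its groups did not overlap, and it rose by 1.42 ± 0.14 (SE, adjusted p = 1.23e-06, 2.68-fold). Ifit3 was at 6.83, 6.97, 6.89, 7.12 and 6.94 in RAS-ON and at 7.60 to 8.79 (median 8.00) in RAS-OFF, a rise of 1.05 ± 0.11 (adjusted p = 1.62e-06). Ifit2, the direct neighbour of Ifit3, was at 8.68, 8.89, 8.47, 9.08 and 9.05 in RAS-ON and at 8.79 to 9.72 (median 9.10) in RAS-OFF.

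The Ifit2 groups overlapped, and here RAS-ON replicates 4 and 5 were the high ones, in contrast to Oasl2 and Irf7. The change of 0.30 did not pass the test (adjusted p = 0.0578, interval 0.03 to 0.56). Of 30 alternatives 9 gave a call. The single arrays whose removal did so were RAS-ON replicate 4 (adjusted p = 0.0329), RAS-ON replicate 5 (0.0398), 48 h replicate 1 (0.0198) and 96 h replicate 1 (0.0256).

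The 2 measured enzymes of the ISG15 pathway, in which the small ubiquitin-like protein ISG15 is attached to other proteins, both rose. Usp18 removes ISG15 and also damps IFNAR signalling. It was at 8.28, 8.69, 8.59, 7.28 and 7.42 in RAS-ON and at 9.25 to 10.31 (median 9.76) in RAS-OFF. All RAS-OFF arrays were above all RAS-ON arrays, and the rise was 1.66 ± 0.21 (SE, adjusted p = 1.47e-05, 3.15-fold). It was 1.19 against RAS-ON replicates 1 to 3 alone and 2.36 against replicates 4 and 5 alone. Herc6, the mouse ligase that attaches ISG15, was at 8.54 to 9.05 in RAS-ON and at 9.09 to 9.64 in RAS-OFF. It rose by 0.52 ± 0.09 (adjusted p = 0.000192), and its 3 dimmer probe sets gave 0.50, 0.82 and 1.38.

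Rsad2 and Cmpk2 stand side by side on the chromosome and had the largest rises of the list. Rsad2 encodes viperin, which makes a chain-terminating nucleotide, and Cmpk2 encodes a nucleotide kinase that supplies its substrate. Rsad2 was at 11.35, 11.31, 11.19, 11.51 and 11.34 in RAS-ON. In RAS-OFF it was at 13.41 and 13.53 at 48 h, 13.54 and 13.18 at 60 h, 13.35 and 13.43 at 72 h, 13.51 and 13.59 at 84 h, and 13.56 and 13.61 at 96 h. The RAS-ON sets did not differ in it as they did in Oasl2, and all 10 RAS-OFF arrays formed a narrow band. The rise was 2.13 ± 0.07 (SE, adjusted p = 1e-11, 4.38-fold), and the other probe sets gave 2.23 and 2.11.

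Cmpk2 was at 8.53, 8.77, 8.10, 7.81 and 8.18 in RAS-ON and at 9.82 to 10.42 (median 10.22) in RAS-OFF, again without overlap. It rose by 1.90 ± 0.13 (SE, adjusted p = 1.67e-08, 3.74-fold), while its dimmer probe set gave 0.55 (adjusted p = 0.00132). Samhd1, which destroys deoxynucleotides and is the third nucleotide enzyme of the list, ran from 10.81 to 11.07 in RAS-ON and from 10.72 to 11.22 in RAS-OFF. Its change of 0.01 did not pass the test (adjusted p = 0.947, interval -0.12 to 0.14). The dimmer Samhd1 probe sets gave 0.12, 0.13, 0.19 (adjusted p = 0.0149) and 0.98 (adjusted p = 0.0209).

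Of the 6 interferon-induced GTPases 3 rose and 1 fell. Igtp and Irgm1 are immunity-related GTPases that act on vacuoles holding pathogens, and both rose. Igtp was at 10.26, 10.23, 10.40, 10.28 and 10.11 in RAS-ON and at 11.29 to 11.71 (median 11.50) in RAS-OFF, a rise of 1.26 ± 0.06 (SE, adjusted p = 6.02e-10, 2.40-fold). Irgm1 was at 9.46, 9.38, 9.55, 9.75 and 9.58 in RAS-ON and at 9.98 to 10.62 (median 10.21) in RAS-OFF, and rose by 0.68 ± 0.08 (adjusted p = 7.98e-06). The groups of both genes were apart on every array.

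The guanylate-binding proteins Gbp2 and Gbp3 also attack such vacuoles, and their genes lie close together with 1 protein-coding gene between them, yet they moved in opposite directions. Gbp2 was at 8.27, 8.10, 7.83, 8.15 and 7.83 in RAS-ON and at 8.34 to 9.45 (median 8.73) in RAS-OFF. It rose by 0.74 ± 0.11 (SE, adjusted p = 3.92e-05), and its second probe set gave 0.46 (adjusted p = 0.000852). Gbp3 was at 9.34, 9.21, 9.24, 9.07 and 9.11 in RAS-ON and at 8.47 to 9.35 (median 8.90) in RAS-OFF. The highest Gbp3 value in RAS-OFF, 9.35, was 48 h replicate 2, and the other 9 RAS-OFF arrays were below the lowest RAS-ON array. Gbp3 fell by 0.32 ± 0.06 (adjusted p = 0.000715), a call that was lost against RAS-ON replicates 4 and 5 alone (adjusted p = 0.0534).

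Neither Mx gene, whose proteins trap viral nucleocapsids, passed the test. Mx1 was at 7.47, 7.67, 8.29, 7.43 and 7.17 in RAS-ON and at 6.72 to 7.81 (median 7.28) in RAS-OFF. Its change was -0.28 (adjusted p = 0.121, interval -0.59 to 0.03), and it turned to 0.02 (adjusted p = 0.913) against RAS-ON replicates 4 and 5 alone. Without RAS-ON replicate 5 it was -0.39 (adjusted p = 0.0344). Mx2 stayed within 7.75 to 8.01 in RAS-ON and 7.90 to 8.13 in RAS-OFF, with a change of 0.12 (adjusted p = 0.101).

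Of the 4 remaining effectors 3 rose. Parp14, an ADP-ribosyltransferase, was at 8.62, 8.87, 8.92, 8.26 and 8.39 in RAS-ON and at 8.97 to 9.74 in RAS-OFF, without overlap, and rose by 0.69 ± 0.11 (SE, adjusted p = 9.69e-05). Xaf1, which binds the inhibitor of apoptosis XIAP, rose by 0.36 ± 0.08 (adjusted p = 0.00128), and Ifi35 by 0.33 ± 0.06 (adjusted p = 0.000365). Xaf1 overlapped between the groups (8.97 to 9.30 and 9.09 to 10.09), as did Ifi35 (11.57 to 11.74 and 11.71 to 12.18).

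Bst2 encodes tetherin, which holds budding virus particles at the cell surface. It was at 9.26, 9.45, 9.40, 9.29 and 9.05 in RAS-ON. In RAS-OFF it was at 9.38 and 9.76 at 48 h, 9.36 and 9.21 at 60 h, 8.71 and 8.73 at 72 h, 9.04 and 8.76 at 84 h, and 8.64 and 9.07 at 96 h. The 48 h arrays were within or above the RAS-ON range, and both 72 h arrays, 84 h replicate 2 and 96 h replicate 1 were well below it. Its mean change of -0.23 ± 0.09 (SE) was at the edge of the test (adjusted p = 0.0494) and lost the call in 18 of 30 alternatives. Leaving out any 1 of 11 arrays was enough: RAS-ON replicates 1, 2, 3 and 4, either array at 60 h or 72 h, 48 h replicate 1, 84 h replicate 2 or 96 h replicate 1, with adjusted p values from 0.0545 to 0.133. Gbp3 was then the 1 member that fell.

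**Figure D2:**
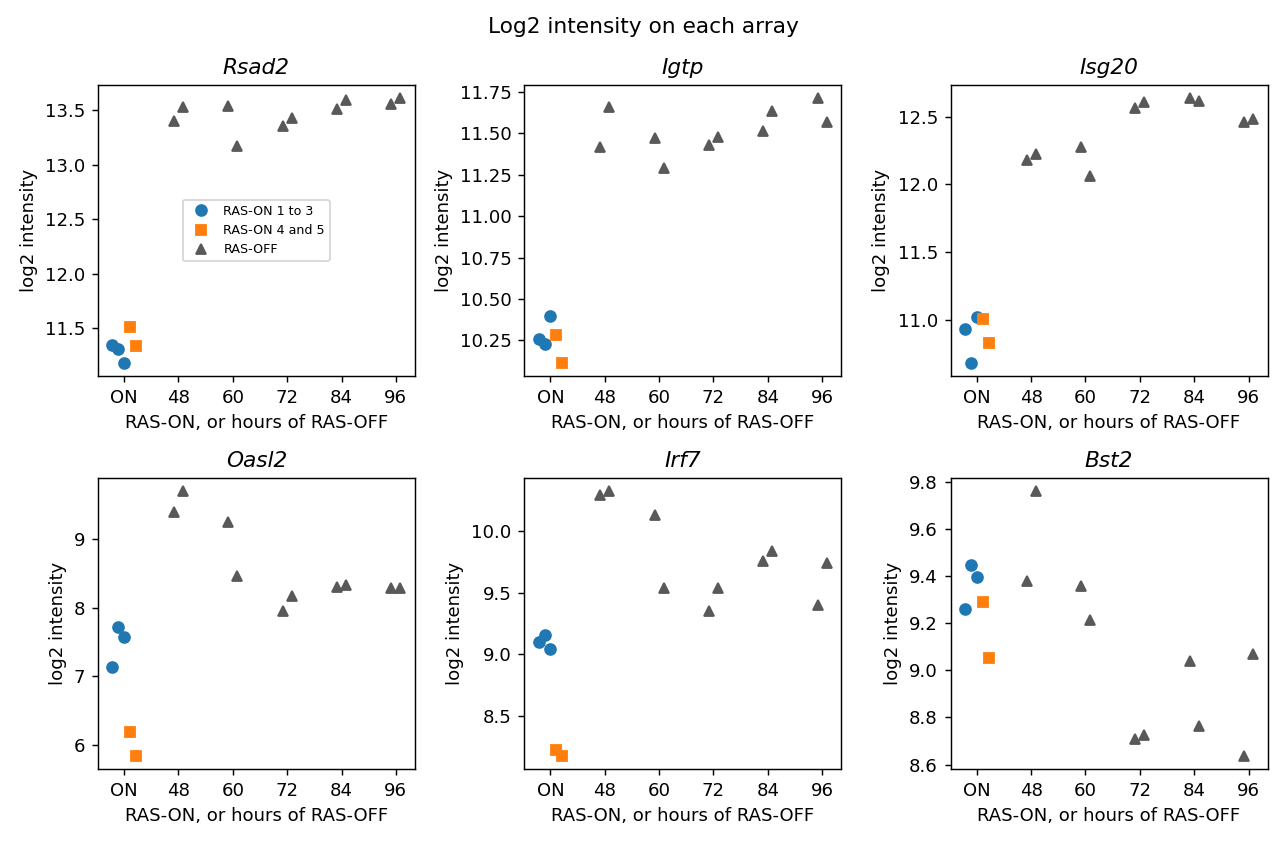
Log2 intensities of single members on each of the 15 arrays, 1 point per array, by RAS-ON and hours after the start of doxycycline; circles are RAS-ON replicates 1 to 3, squares replicates 4 and 5 and triangles RAS-OFF. Rsad2 lies at 11.19 to 11.51 in RAS-ON and at 13.18 or above in RAS-OFF, whereas Bst2 is at 9.38 and 9.76 at 48 h and at 9.07 or below from 72 h on.

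RAS-ON samples differed among themselves in the interferon genes. In 17 of the 34 members all of replicates 1 to 3 lay above both replicates 4 and 5, as in 18.3% of all genes, and in 2 members they all lay below, as in 24.6% of all genes. The mean difference between these arrays was 1.47 for Oasl2, 1.17 for Usp18 and 0.90 for Irf7. It was 0.51 for Mx1, 0.51 for Oas2, 0.52 for Oas3 and 0.45 for Oas1a, which exceeds the size of the RAS-OFF change of each of these 4 genes. By contrast it was -0.04 for Isg20, -0.14 for Rsad2 and -0.38 for Ifit2. These sets were seen in the data and are not groups of the study. Against replicates 1 to 3 alone 22 members were called higher and 4 lower, with 21 of the 23 rises among the former. Against replicates 4 and 5 alone 26 were called higher, with 22 of the 23 among them, and 0 lower (1 at an unadjusted p below 0.05).

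The contrasts at single times ask how soon and for how long the genes were higher, and they all use the same RAS-ON arrays. At 48 h, 26 of the 34 members rose and 0 fell with limma (0 also at an unadjusted p below 0.05), with a median of 0.86. The background at 48 h was 13.7% of all genes called higher and 13.7% called lower, with a median of -0.07. At 60 h 18 rose and 1 fell (median 0.46, background 11.5% higher and 14.2% lower). At 72 h 14 rose and 4 fell (median 0.18, background 13.4% and 18.3%). These numbers describe a list that was highest at the first time sampled. At 84 h 17 rose and 3 fell (median 0.38, background 15% and 21.8%), and at 96 h 20 rose and 3 fell (median 0.43, background 16.7% and 20.9%). All-gene medians lay between -0.07 and -0.02 at the 5 times.

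Each time has 2 arrays, and single arrays moved these counts. Without RAS-OFF 60 h replicate 1, 9 members rose at 60 h. Without RAS-OFF 72 h replicate 1 or replicate 2, 7 or 8 rose at 72 h, and without 96 h replicate 2, 13 rose at 96 h. At 72 h 2 members fell without 72 h replicate 1. At 84 h 1 fell without 84 h replicate 2, RAS-ON replicate 1 or RAS-ON replicate 2. At 96 h 0 fell without 96 h replicate 1 (1 at an unadjusted p below 0.05), and 1 fell without 96 h replicate 2, RAS-ON replicate 1 or RAS-ON replicate 2.

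**Figure D3:**
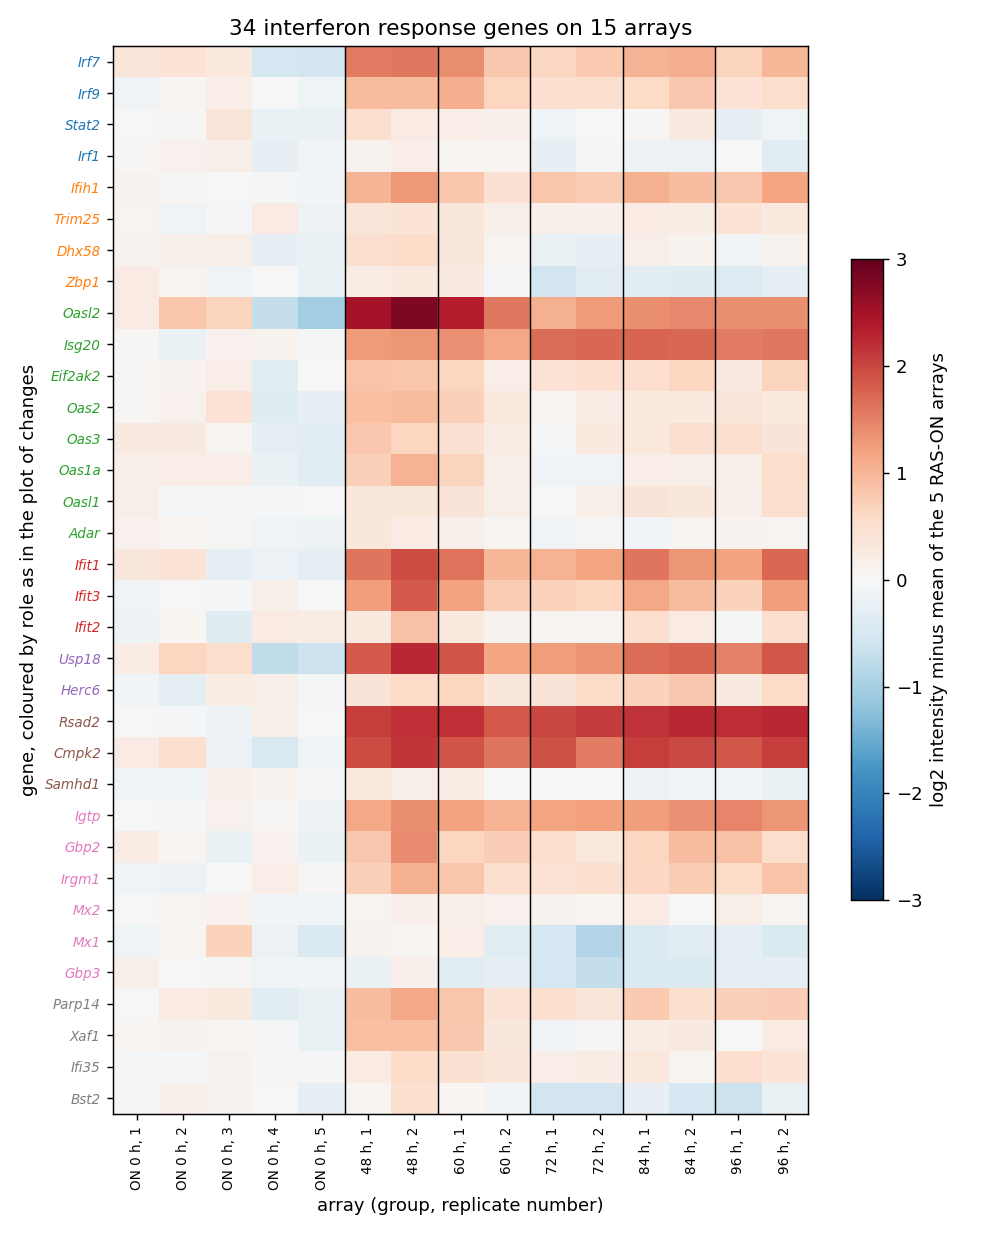
Difference of each member's log2 intensity from its RAS-ON mean on each of the 15 arrays, with genes as rows by role and arrays as columns by time; red is above and blue below the RAS-ON mean. Rsad2, Isg20 and Igtp stay red in all 10 RAS-OFF columns, and Bst2, Zbp1, Gbp3 and Mx1 are blue on both 72 h arrays.

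Nearly the whole list had a lower mean at 72 h than at 48 h and at 84 h. The 72 h mean lay below the 48 h mean in 33 of 34 members, as in 52.3% of all genes, with a median difference of -0.48 against -0.01 over all genes. Both 72 h arrays lay below both 48 h arrays in 29 members, as in 23.6% of all genes, and above them in 1, as in 20.1% of all genes. That 1 gene was Isg20. The 84 h mean lay above the 72 h mean in 31 of 34 members, as in 48.2% of all genes, with a median difference of 0.22. Of the 5 RAS-OFF means, the highest was at 48 h in 27 members (28.1% of all genes) and the lowest at 72 h in 24 members (13.3% of all genes). The lowest was at 60 h in 5 members (18.5% of all genes), Rsad2 and Igtp among them. This pattern was noticed in the data and is given as a description. By array, the median member stood 0.76 and 0.90 above its RAS-ON mean at 48 h, 0.64 and 0.33 at 60 h, 0.17 and 0.26 at 72 h, 0.45 and 0.41 at 84 h, and 0.39 and 0.51 at 96 h.

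**Figure D4:**
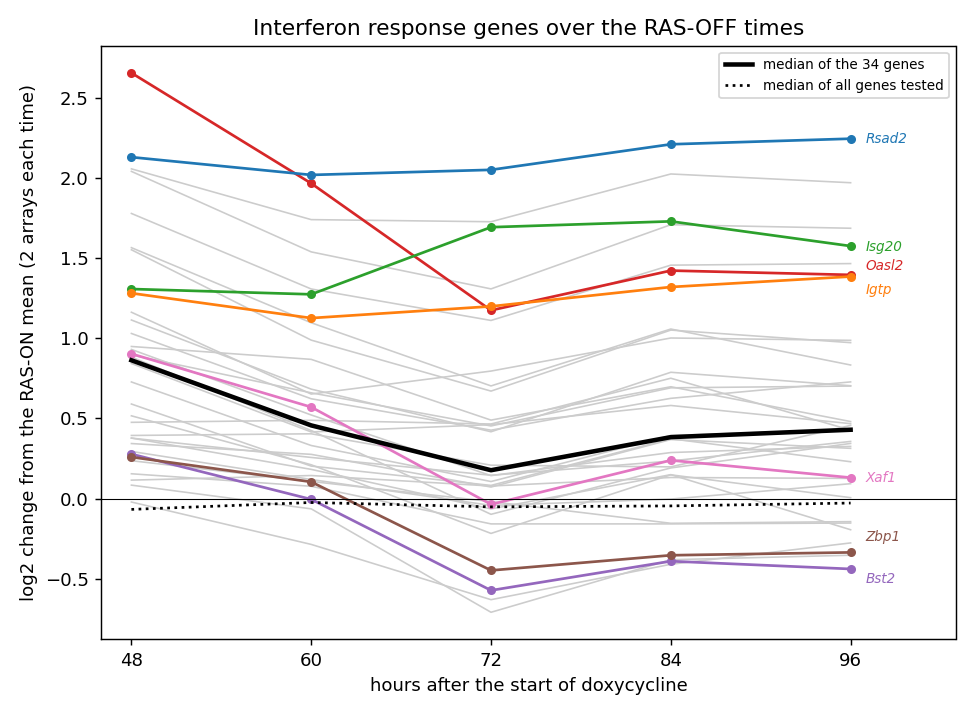
Log2 change of each member from the RAS-ON mean at 48, 60, 72, 84 and 96 h (2 arrays per time), with selected genes in colour, the other members in grey, the member median in black and the all-gene median dotted. The member median falls from 0.86 at 48 h to 0.18 at 72 h and is 0.43 at 96 h, while Rsad2 stays between 2.02 and 2.24.

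Members differed in how they moved between 48 and 96 h. Rsad2 moved little, with changes of 2.13, 2.02, 2.05, 2.21 and 2.24 at the 5 times, and so was Igtp, with 1.28, 1.13, 1.20, 1.32 and 1.39. Oasl2 had the largest change of all members at 48 h and came down, with 2.66, 1.97, 1.17, 1.42 and 1.40. Usp18 dipped and recovered, with 2.04, 1.54, 1.31, 1.71 and 1.69, and Ifit1 did likewise, with 1.78, 1.31, 1.11, 1.46 and 1.47. Xaf1 rose at 48 h by 0.90 (adjusted p = 4.78e-05) and at 60 h by 0.57 (adjusted p = 0.00223), and then stood at -0.04, 0.24 and 0.13 with no call. Zbp1 and Bst2 were at 0.26 and 0.28 at 48 h without a call, and both fell at 72 h, by 0.45 (adjusted p = 0.0085) and 0.57 (adjusted p = 0.00482).

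Zbp1, Bst2 and Gbp3 were also called lower at 84 and 96 h. Gbp3 was at -0.02 at 48 h and fell by 0.63 at 72 h (adjusted p = 0.000174). Its call at 60 h (-0.29, adjusted p = 0.0453) was lost without any 1 of 9 arrays: RAS-ON replicates 1, 2 and 3 and either replicate at 60, 84 and 96 h. Mx1 fell at 72 h by 0.71 (adjusted p = 0.0238). Ifit2 (0.59), Dhx58 (0.52), Adar (0.29) and Oas1a (0.88) passed at 48 h and at no later time. Of these 4, Dhx58 passed the slope test given next, while Oas1a, Adar and Ifit2 did not (adjusted p = 0.0641, 0.162 and 0.526).

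The slope over the 5 RAS-OFF means tests for a straight-line trend. An early fall alone can give a call, so a called slope need not mean steady movement. Of 34 members 1 rose and 8 fell over time, while 5.00% of all genes rose and 8.75% fell. The member median was -0.06 per 12 h, against 0.00 for all genes. Isg20 rose by 0.10 ± 0.02 per 12 h (SE, adjusted p = 0.0154). Xaf1 fell by 0.19 ± 0.03 per 12 h (adjusted p = 0.0013), Bst2 by 0.18 ± 0.04 (adjusted p = 0.00409), Zbp1 by 0.16 ± 0.03 (adjusted p = 0.00283) and Oas2 by 0.14 ± 0.04 (adjusted p = 0.0456). The other 4 fallers, Stat2, Irf9, Dhx58 and Samhd1, fell by 0.12, 0.11, 0.11 and 0.10 per 12 h. Without the 48 h arrays 0 members fell with limma (4 at an unadjusted p below 0.05), in a fit with fewer arrays and times. Their slopes were then -0.12 for Zbp1, -0.11 for Bst2, -0.10 for Xaf1, -0.10 for Irf9, -0.09 for Stat2 and -0.09 for Samhd1. Those of Oas2 and Dhx58 shrank most, to -0.04 and -0.02. The count of 8 was 5 without either array at 48 h or without replicate 1 at 60, 84 or 96 h, and the Isg20 call was lost without 48 h replicate 1 or either 96 h array.

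Other genes of the pathway were counted against the same background of 20.1% of all genes higher and 28.7% lower. Most of these list counts lay near that background. Of 11 measured ligands and receptors 1 rose and 4 fell (median -0.06). Both chains of the type I receptor fell, Ifnar2 by 0.40 ± 0.08 (SE, adjusted p = 0.000486) and Ifnar1 by 0.37 ± 0.06 (adjusted p = 9.55e-05). The interferon gamma receptor chains Ifngr2 and Ifngr1 fell by 0.89 ± 0.17 and 0.46 ± 0.05. Among the interferon genes themselves Ifna1 rose by 0.25 ± 0.08 (adjusted p = 0.0191). Ifna2, Ifna4 and Ifna5 changed by -0.04, -0.06 and 0.04 and did not pass the test (adjusted p = 0.622, 0.438 and 0.572). Ifnb1 was at 6.02 ± 0.11 (SD) on the 5 RAS-ON arrays. On the 10 RAS-OFF arrays Ifnb1 was at 5.97 ± 0.18 (SD), and its change did not pass the test (adjusted p = 0.622). Ifng changed by 0.10 (adjusted p = 0.18). Ifnb1, Ifna4 and Ifng were the 3 genes of this list below the array median on every array.

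Of 9 signalling kinases, STATs and IRFs outside the list, 2 rose and 4 fell (median -0.20). Irf5, a factor downstream of Toll-like receptors in myeloid cells, fell by 1.46 ± 0.09 (SE), Irf8, a factor of monocytes and dendritic cells, by 0.57 ± 0.13, and the kinase Jak2 rose by 0.44 ± 0.07. Of 14 sensors and adaptors 2 rose and 9 fell (median -0.29). Sting1, the adaptor of DNA sensing, fell by 1.09 ± 0.09 and the kinase Ikbke by 0.98 ± 0.11, while Mavs, the adaptor of the RNA sensors, rose by 1.00 ± 0.17. Of 9 negative regulators 3 fell, Pias1, Ptpn6 and Socs1, and the other members did not pass the test (median -0.09).

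Of 15 measured targets of interferon gamma and genes of antigen presentation, 5 rose and 6 fell (median -0.04). The risers of most change were the immunity-related GTPases Irgm2 (1.71 ± 0.11, SE, adjusted p = 1.15e-08) and Iigp1 (1.20 ± 0.07), in the same direction as Igtp and Irgm1. Psmb8, an immunoproteasome subunit, fell by 1.12 ± 0.05 (adjusted p = 1.71e-10). The other 5 that fell, Psmb9, Psmb10, Tap1, Tap2 and Tapbp, also make or load peptides for MHC class I, whereas B2m, the light chain of MHC class I, rose by 0.13 ± 0.05 (adjusted p = 0.0438).

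Marker genes of other spleen cells also differed between RAS-OFF and RAS-ON, and their part in the interferon changes was not tested. Over all genes 20.1% rose and 28.7% fell, to be read beside each marker count. All 8 measured erythroid markers rose (median 1.55), and their summed linear intensity was 26870 to 31500 in RAS-ON and 65950 to 84060 in RAS-OFF. Of 12 red pulp macrophage markers 10 rose and 2 fell, with sums of 14120 to 19800 and 21880 to 28550. Of 10 leukemic myeloid progenitor markers 5 fell and 1 rose, with sums of 51260 to 60960 and 19090 to 25850. In RAS-ON the 10 genes ran from 7.51 (Meis1) to 13.90 (Mpo) in log2 intensity. Kit rose by 0.43 ± 0.10 (SE, adjusted p = 0.00263), and Csf1r, Hoxa9, Itgam and Meis1 did not pass the test.

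Natural killer and plasmacytoid dendritic cells can make or answer interferons in this tissue. Of 8 natural killer cell markers 5 rose and the others did not pass the test, with sums of 1914 to 2172 in RAS-ON and 2187 to 3765 in RAS-OFF. Of 9 plasmacytoid dendritic cell markers 5 rose and 2 fell, with sums of 2530 to 2634 and 2585 to 3627. The natural killer cell sums were 3296 and 3765 at 48 h, 2580 and 2727 at 72 h, and 2432 and 2655 at 84 h. The plasmacytoid dendritic cell sums were 3627 and 3472, 3176 and 2819, and 2848 and 2585 at these times. Both were lower at 72 h than at 48 h, as were the T cell, B cell, red pulp macrophage and leukemic progenitor sums. From 72 h to 84 h the median change went from 0.21 to 0.27 for natural killer and from 0.18 to 0.15 for plasmacytoid dendritic cell markers. The red pulp macrophage sums were 28470 and 26600 at 48 h, 25730 and 25960 at 72 h, and 27860 and 28550 at 84 h. The part of these cells in the course of the interferon genes was not tested. T cell markers (2 of 6 higher, 1 lower), B cell markers (1 of 5 higher, 4 lower) and stroma markers (6 of 8 higher, 1 lower) summed to 1372 to 1608, 1927 to 2019 and 11360 to 12040 in RAS-ON, and to 1787 to 2578, 1197 to 1540 and 12800 to 18420 in RAS-OFF. The higher T cell sum came mostly from Cd3d, at a mean of 8.86 in RAS-ON and 10.12 in RAS-OFF. Of the other T cell markers Cd8a rose by 0.22, Cd5 fell by 0.55, and Cd3e, Cd3g and Cd4 did not pass the test. On arrays summarised this way no marker is listed at 0, so absence of a cell type cannot be read from the values.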

How the data were processed

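Total RNA was amplified, labelled with biotin and hybridised to mouse expression arrays, per the labels' protocols. The deposited values are linear intensities, 1 for each probe set on each array, which the authors obtained by RMA (background correction, normalization between arrays and summary of probes), per the submitters' processing notes. Its version is not given in the sources used here. RMA gives all arrays like distributions, so a shift of most genes one way would not be seen.

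Of 45101 probe sets 34945 had 1 gene symbol in the platform annotation, 932 had several and 9224 had none or were controls. The brightest probe set by mean over the 15 arrays stood for each of 18193 genes. Values were put on the log2 scale and fitted in R 4.3.3 with limma 3.58.1, using a mean for every group and eBayes, and the tests were two-sided. The Benjamini-Hochberg adjustment took in every gene, and a gene was called at an adjusted p below 0.05. Dim genes were kept. Precision is limited by how few arrays there are. The RAS-OFF value is the mean of the 5 group means minus RAS-ON, and slopes are per 12 h. Of the 34 measured members 20 had 1 probe set and 14 several, 59 in all, and 0 had calls both ways. The code was tested on simulated data.

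The members, the other gene lists, the motifs and the alternatives were chosen with earlier results of these data known. Every member is named. From each other pathway list up to 3 called genes of largest change were to be named, and further ones were added after their values were seen. The alternatives covered dim genes, probe sets, scaling, variance model, array weights, a block for the replicate number, the RAS-ON sets and left-out arrays or times.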

Additional observations from a re-analysis of the deposited data

Results flagged for a closer look

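Oasl1 on RAS-ON replicate 1, at 8.39 in log2 intensity, lay far from the other 4 RAS-ON arrays (8.17 to 8.20). It was the 1 such array among the RAS-ON values of 34 members, where chance flags about 1 in 20 groups.

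The level of 9 members differed between RAS-OFF times by the test of the slope per 12 h. The slope was 0.10 for Isg20. It was -0.19 for Xaf1, -0.18 for Bst2, -0.16 for Zbp1, -0.14 for Oas2 and -0.12 for Stat2. Irf9 and Dhx58 had slopes of -0.11 and -0.11, and Samhd1 had one of -0.10. Without the 48 h arrays 0 slopes were called lower, and those of the 8 genes ran from -0.12 to -0.02.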

How the results depend on the processing

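For RAS-OFF against RAS-ON, 19 to 26 members were called higher over the alternatives, and 18 of the 25 called members kept direction and call in all of them. The number called lower was 1 with all probe sets tested separately, without the 3 RAS-OFF arrays farthest from the rest, or without the 72 h, 84 h or 96 h arrays, 4 against RAS-ON replicates 1 to 3 alone and 0 against replicates 4 and 5 alone. The member lower at 60 h was lost, leaving 0, with trend and robust settings, with all probe sets tested separately, against RAS-ON replicates 4 and 5 alone, and with the 60 h and RAS-ON arrays alone. Against RAS-ON replicates 1 to 3 and against 4 and 5 alone, 5 and 1 members were lower at 84 h and 6 and 0 at 96 h. Without the 3 far arrays, 0 were lower at 96 h, 0 had a rising slope and 1 had a falling slope. Rising slopes also numbered 0 without the 48 h, 60 h or 84 h arrays, and falling slopes 0 without the 48 h arrays and 5 without those of 60 h. The causes of these differences were not tested.

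Leaving out 1 array at a time gave 1 to 4 members lower for RAS-OFF against RAS-ON. It gave 9 to 20 higher and 0 to 1 lower at 60 h, 7 to 15 higher and 2 to 4 lower at 72 h, 1 to 3 lower at 84 h, and 13 to 20 higher and 0 to 3 lower at 96 h. Rising slopes numbered 0 to 1 and falling slopes 5 to 10.

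No pairing of the samples by replicate number was seen. The deviations of replicate 1 arrays from their group means correlated at -0.231 to 0.217 over 15 pairs of groups, above 0.1 in 3. Of 15 arrays 3 correlated best with their own number. With 2 arrays at each RAS-OFF time, this check could not exclude a pairing. With the replicate number as a block, 19 members were higher and 2 lower for RAS-OFF against RAS-ON, and 13 slopes fell. The calls of Oasl1, Oas1a, Oas3, Xaf1 and Bst2 were lost (adjusted p = 0.105, 0.276, 0.338, 0.058 and 0.0715), and Zbp1 gained one (0.0186).

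Signs turned for members without a call: Irf1 to 0.13 and Mx1 to 0.021 against RAS-ON replicates 4 and 5 alone, Stat2 to -0.046 and Dhx58 to -0.010 against replicates 1 to 3 alone, and Adar to -0.0045 with the block. Samhd1 turned to -0.017 with median centring, -0.030 against replicates 4 and 5 alone, -0.014 without the 3 far arrays, -0.052 without the 48 h arrays and -0.020 without those of 60 h, and ran from -0.022 to 0.042 with 1 array left out. Leaving out dim genes removed Mx1. No detection calls were used, so how far dim probe sets lie above background is not known.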
